A study of Mus musculus with 10 samples.

Results

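The 8 genes described here encode isoenzymes of glycolysis, the cytosolic route from glucose to pyruvate and lactate. They are the hexokinases Hk1 and Hk2, the phosphofructokinases Pfkl and Pfkp, the aldolase Aldoa, the pyruvate kinases Pklr and Pkm, and the lactate dehydrogenase Ldha. They were picked by symbol from a table of 56748 genes, and of the 2 rows named Aldoa the one with the higher mean level was used. Beside them, 5 further isoenzyme genes of the same steps are described: Hk3, Hkdc1, Pfkm, Aldoc and Ldhb.

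Each of these steps can be run by several enzymes that are encoded by different genes and differ in affinity and regulation. Adult hepatocytes are known for the liver phosphofructokinase (Pfkl) and the liver pyruvate kinase (Pklr), enzymes suited to handling large sugar loads and to switching between glucose use and glucose production. Fetal liver and many tumours use Hk1 or Hk2, Pfkp, Aldoa and Pkm instead, and Ldha turns the pyruvate so made into lactate.

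RNA was sequenced from 10 mouse livers or liver tumours: 4 normal livers of FVB wild-type mice, 3 tumours induced by Akt plus Nras (called Akt/Nras tumours), and 3 tumours raised with Akt/Nras/Foxo1AAA, called Foxo1AAA tumours from here on. The labels give the genotype of all 10 samples as wild type. The tumours, a model of hepatocellular carcinoma, were started by hydrodynamic tail vein injection, a fast injection of DNA that reaches hepatocytes. AKT is a growth kinase that phosphorylates and silences the transcription factor FOXO1, and in Foxo1AAA the phosphorylation sites are replaced by alanine. The labels give no age, sex, promoter or time of harvest, and do not say that the samples of a group came from separate mice, so a p-value here reflects the spread among these samples, which may be technical. The injected gene matched the labels: Foxo1 stood at 83.3, 77.9 and 125 FPKM in the Foxo1AAA tumours and between 5.37 and 8.02 FPKM in the other 7 libraries.

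Levels are in FPKM, fragments per length of gene and unit of depth, which corrects for gene length and for a depth that the authors set. The whole reads behind them numbered 13585055 to 21262035 per library. The sum of all FPKM in a library lay between 692009.9 and 743202.8 for normal livers. It lay between 349618.6 and 381653.1 for Akt/Nras and between 413812.4 and 444893.0 for Foxo1AAA tumours, so the totals differed between the groups. The depth that the authors set was 0.629 to 0.668 times the reads in normal livers. It was 1.002 to 1.061 times in Akt/Nras and 0.875 to 0.928 times in Foxo1AAA tumours. Median-of-ratios scaling, which is set by the typical gene, would multiply the deposited libraries by 0.953 to 1.04. Which scale is nearest to the tissue was not tested. With every library rescaled to the same total, the median log2 change of all tested genes against normal liver went up from -0.07 to 0.70 (Akt/Nras) and from -0.09 to 0.47 (Foxo1AAA), and the median between both kinds of tumour moved from -0.01 to -0.21. Ratios of genes within a library do not depend on that scale. In bulk tissue, fewer cells of a type and less RNA per cell cannot be told apart.

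Against normal liver, 7 of the 8 genes were higher in Akt/Nras tumours (limma, adjusted p under 0.05), where 31.1% of the 12439 tested genes were called higher. Pklr was the 1 gene called lower, where 37.9% of all tested genes were. In Foxo1AAA tumours 6 of the 8 were higher, beside 26.8% of all genes, Pklr was again lower, beside 36.5%, and Ldha was not called. The median log2 change of the 8 genes was 1.26 in Akt/Nras and 0.80 in Foxo1AAA tumours. All 8 passed the filter on low values (at least 1 FPKM in at least 3 libraries), but Hk1, Hk2 and Pfkp passed it only through tumour libraries, since no normal liver reached 1 FPKM for them, so they could enter these counts only by being higher in tumours. Both comparisons use the same 4 normal livers. The counts against normal liver stayed at 7 higher and 1 lower in Akt/Nras tumours with each of the 3 other scalings, and rose to 7 higher in Foxo1AAA tumours with equal totals and with the total taken without the 50 most abundant genes. Log2 changes below are on the log2(FPKM + 1) scale, which understates the change of genes of low level, and folds are ratios of mean FPKM. Where a pair of values is given without a group, the first is Akt/Nras and the second Foxo1AAA tumours, each against normal liver.

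**Figure D1:**
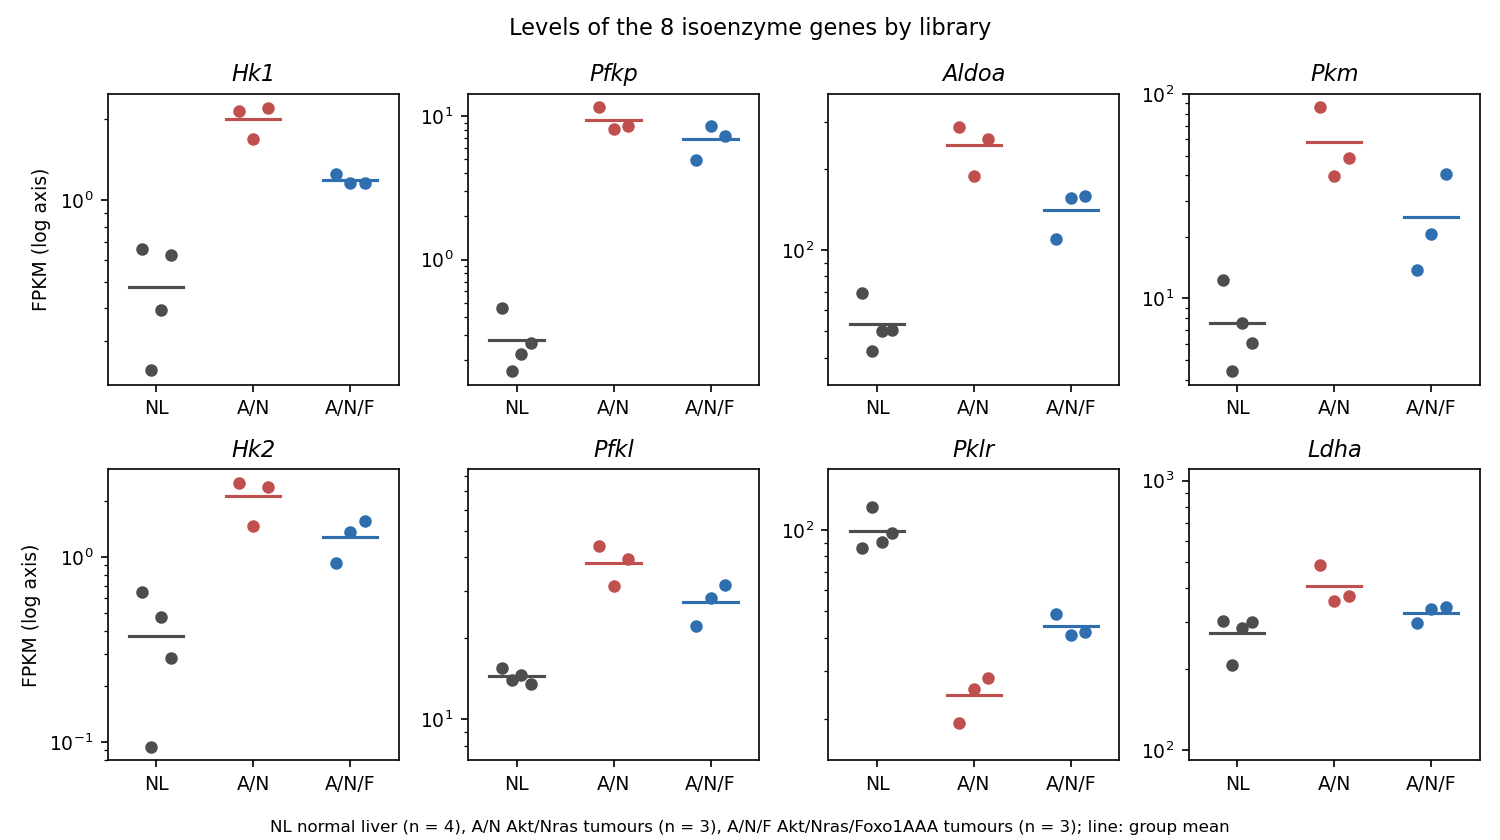
FPKM of each of the 8 isoenzyme genes (log axis) in the 4 normal livers (NL), 3 Akt/Nras tumours (A/N) and 3 Akt/Nras/Foxo1AAA tumours (A/N/F). Points are libraries and lines are group means. Pklr is the 1 gene with all tumour libraries below all normal livers, and for Ldha the Foxo1AAA tumours (296 to 340 FPKM) overlap normal liver (208 to 303 FPKM).

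Pyruvate kinase makes the last step of glycolysis, and its genes changed places in Akt/Nras tumours. Pkm (ENSMUSG00000032294, chr9:59563651-59586658 in the deposited table, whose genome build is not named) encodes the muscle and embryonic forms PKM1 and PKM2, which a value per gene does not separate. Pkm was at 12.3, 4.39, 7.61 and 6.01 FPKM in the normal livers, at 86.7, 39.5 and 48.6 FPKM in the Akt/Nras tumours, and at 13.8, 20.5 and 40.8 FPKM in the Foxo1AAA tumours. Every tumour library was above every normal liver, but the lowest Foxo1AAA tumour stood only just above the highest normal liver. The mean rose 7.69-fold in the Akt/Nras group (log2 change 2.79, SE 0.398, limma adjusted p = 0.000102), against 3.31-fold in Foxo1AAA tumours (log2 change 1.55, SE 0.398, limma adjusted p = 0.00598).

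Pklr (ENSMUSG00000041237, chr3:89043449-89054091 in the deposited table) encodes the liver and red cell pyruvate kinases, and the liver form is the one that fasting shuts down. It was at 85.9, 122, 90.1 and 97.7 FPKM in the normal livers, at 19.3, 25.8 and 28.3 FPKM in the Akt/Nras tumours, and at 49, 41 and 42 FPKM in the Foxo1AAA tumours. No group overlapped another, with Foxo1AAA tumours in between. The mean was 4.05-fold lower in the Akt/Nras group (log2 change -1.98, SE 0.151, limma adjusted p = 9.52e-07), against 2.25-fold lower in Foxo1AAA tumours (log2 change -1.14, SE 0.151, limma adjusted p = 7.74e-05).

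Within a library, Pkm was 0.0359 to 0.143 times the level of Pklr in FPKM in normal livers, 1.53 to 4.50 times with Akt/Nras and 0.282 to 0.972 times in Foxo1AAA tumours. Pkm therefore outweighed Pklr in all 3 Akt/Nras tumours and in none of the 3 Foxo1AAA tumours on the deposited lengths. Those lengths join all exons of a gene, which for Pkm is 2.06 times its longest coding transcript and for Pklr 1.12 times. With the longest coding transcript as length, an alternative chosen after seeing the data, the share of Pkm in the step was 6.22 to 20.9% in normal livers, 73.9 to 89.2% with Akt/Nras and 34.2 to 64.2% in Foxo1AAA tumours, so that which gene led in the last group depended on the length. The sum of both genes was 97.7 to 127 FPKM in normal livers, 65.3 to 106 FPKM with Akt/Nras and 61.5 to 82.8 FPKM in Foxo1AAA tumours.

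The start of the liver transcript of Pklr is known for a carbohydrate response element, bound by ChREBP (the product of Mlxipl). It is made of the parts CACGNG and CNCGTG set 5 bases apart. The bases before that start are shown because their promoter carries the 1 such element found among the 14 annotated starts of the 8 genes (RefSeq, GRCm38.p6). The search of the 250 bases before each start covered both strands and found the element in 13 of 32851 windows (0.0396%). It begins 170 bases before the start on the plus strand and is in capitals, in chr3:89136373-89136571, printed 5′ to 3′. The first 199 of the 250 bases are printed, up to an annotated exon of the gene, so the line ends before the start.
Pklr: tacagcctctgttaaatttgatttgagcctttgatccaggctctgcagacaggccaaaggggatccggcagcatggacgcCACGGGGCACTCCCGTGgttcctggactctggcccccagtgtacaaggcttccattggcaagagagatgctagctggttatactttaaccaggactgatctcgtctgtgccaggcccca
Mlxipl itself was at 32.5 to 53.2 FPKM in the normal livers, at 3.32 to 7.23 FPKM in the Akt/Nras tumours and at 10.8 to 11 FPKM in the Foxo1AAA tumours. It was 7.19-fold lower in the Akt/Nras group (log2 change -2.68, limma adjusted p = 1.5e-06) and 3.75-fold lower in Foxo1AAA tumours (log2 change -1.79, limma adjusted p = 4.23e-05). The match in the promoter is a description and says nothing of binding.

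Aldolase splits fructose 1,6-bisphosphate into the triose phosphates. Aldoa (ENSMUSG00000030695, chr7:126394406-126399923 in the deposited table), the form of muscle and most other tissues, was at 69.5, 42.2, 50.4 and 50.5 FPKM in normal liver, at 287, 189 and 258 FPKM in Akt/Nras tumours and at 110, 156 and 159 FPKM in Foxo1AAA tumours. The 3 groups did not overlap. Its mean rose 4.6-fold (log2 change 2.18, SE 0.2, limma adjusted p = 3.56e-06), against 2.66-fold (log2 change 1.40, SE 0.2, limma adjusted p = 0.000131). Aldoc, the form known from brain, was at 14.1 to 17.4 FPKM in normal liver and at 4.90 to 11.1 FPKM in tumours, below Aldoa in every library.

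**Figure D2:**
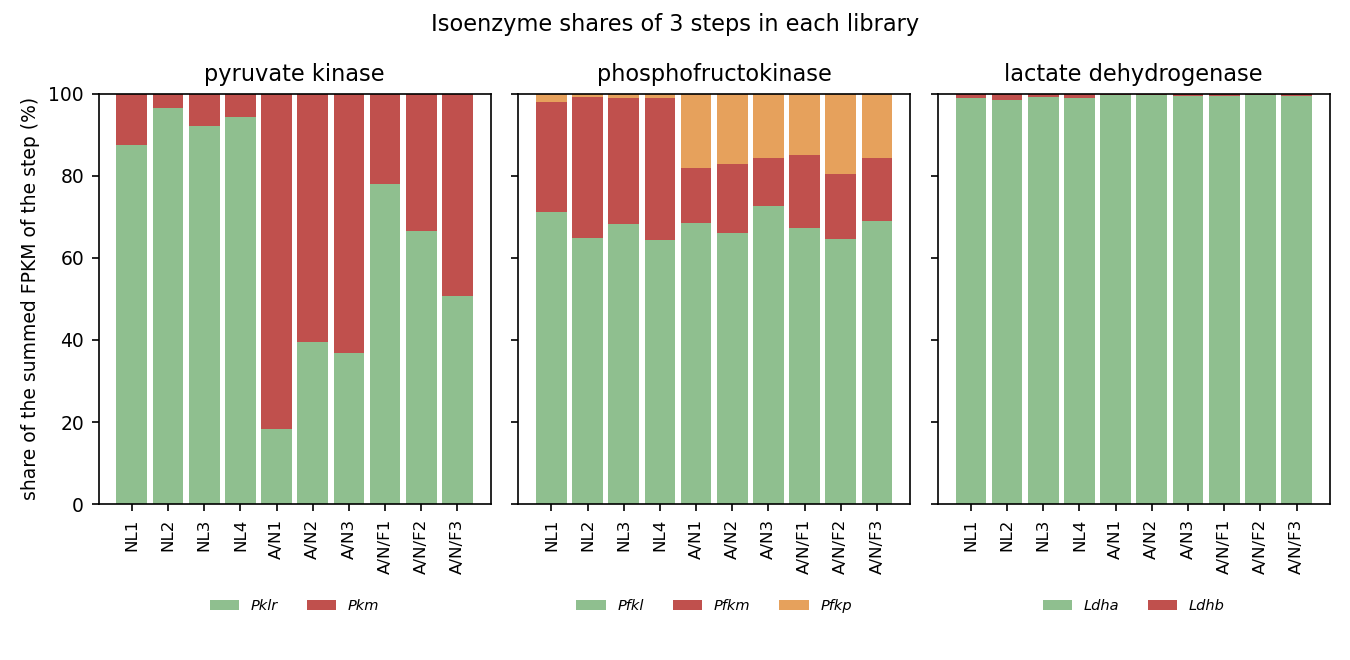
Share of each isoenzyme gene in the summed FPKM of its step (percent, deposited gene lengths), 1 bar per library; NL, A/N and A/N/F as in the plot of levels by library. Pkm takes 60.5 to 81.8% of pyruvate kinase in Akt/Nras tumours, Pfkl holds 64.4 to 72.5% of phosphofructokinase in all libraries on these lengths (58.6 to 66.9% in tumours and 72.4 to 77.1% in normal livers on the longest coding transcript), and Ldha holds 98.3% or more of lactate dehydrogenase.

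Phosphofructokinase commits sugar to glycolysis. Pfkp (ENSMUSG00000021196, chr13:6629804-6698813 in the deposited table), the platelet form, was nearly silent in normal liver, at 0.459, 0.166, 0.218 and 0.263 FPKM from 20 to 72 reads per library. It reached 11.6, 8.05 and 8.45 FPKM in Akt/Nras tumours and 4.91, 8.51 and 7.27 FPKM in Foxo1AAA tumours. Both tumour groups stood far above normal liver and overlapped each other. The log2 change was 3.01 (SE 0.171, limma adjusted p = 1.26e-07) in Akt/Nras and 2.61 (SE 0.171, limma adjusted p = 5.89e-07) in Foxo1AAA tumours, and the mean level was 24.9-fold that of normal liver in the latter.

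Pfkl, the liver form (ENSMUSG00000020277, chr10:77822781-77845917 in the deposited table), was not given up. It was at 15.6, 14.0, 14.7 and 13.6 FPKM in normal liver, at 43.9, 31.2 and 39.2 FPKM in Akt/Nras tumours and at 22.2, 28.1 and 31.5 FPKM in Foxo1AAA tumours. All tumours were above all normal livers. Its mean rose 2.64-fold (log2 change 1.33, SE 0.136, limma adjusted p = 8.09e-06), against 1.89-fold (log2 change 0.86, SE 0.136, limma adjusted p = 0.000261). Pfkl held 64.4 to 71.2% of the summed FPKM of the step in normal livers, 66.1 to 72.5% with Akt/Nras and 64.5 to 68.9% in Foxo1AAA tumours. The share that Pfkp gained, from 0.772 to 2.10% up to 14.9 to 19.5% over both tumour groups, came beside a lower share of the muscle form Pfkm, from 26.7 to 34.4% down to 11.8 to 17.9%. Pfkm in FPKM was 5.83 to 7.41 in normal liver and 5.92 to 8.65 in tumours and was not called in either group. With equal totals Pfkm was called higher in both (log2 change 1.01 and 0.60, limma adjusted p = 2.01e-05 and 0.00124), and so it was without the 50 most abundant genes in the total (log2 change 0.77 and 0.50). The deposited length of Pfkp is 3.23 times its longest coding transcript, and with that transcript as length its tumour share was 25.4 to 32.0%. On that length the share of Pfkl was 72.4 to 77.1% in normal livers, 61.3 to 66.9% with Akt/Nras and 58.6 to 64.1% in Foxo1AAA tumours, so whether its share moved depended on the length. The label of a switch from the liver form to the other form thus held for pyruvate kinase in Akt/Nras tumours, and not for phosphofructokinase, where the level of the liver form rose as well and it led in every library on either length.

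Hexokinases phosphorylate glucose on entry. Hk1 (ENSMUSG00000037012, chr10:62104634-62215687 in the deposited table), the form of brain and most tissues, was at 0.661, 0.235, 0.392 and 0.625 FPKM in normal liver, at 2.15, 1.69 and 2.20 FPKM in Akt/Nras tumours and at 1.25, 1.16 and 1.16 FPKM in Foxo1AAA tumours. The groups did not overlap. It rose by log2 1.03 (SE 0.124, limma adjusted p = 2.76e-05) and by log2 0.58 (SE 0.124, limma adjusted p = 0.00204).

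Hk2 (ENSMUSG00000000628, chr6:82702006-82751435 in the deposited table), the insulin-responsive form of muscle that many tumours take up, was at 0.644, 0.0934, 0.473 and 0.285 FPKM in normal liver, from 5 to 45 reads. It was at 2.53, 1.47 and 2.41 FPKM in Akt/Nras tumours and at 0.923, 1.37 and 1.56 FPKM in Foxo1AAA tumours. All tumours were above all normal livers, and the tumour groups overlapped. It rose by log2 1.19 (SE 0.177, limma adjusted p = 0.000142) and by log2 0.74 (SE 0.177, limma adjusted p = 0.00402). The ratio of Hk2 to Hk1 overlapped between tumours and normal liver, with a mean log2 difference of 0.44 (exact permutation test, two-sided, p = 0.143, adjusted p = 0.18).

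A further hexokinase gene, Hkdc1, changed more than Hk1 or Hk2. It encodes a hexokinase with a weaker affinity for glucose than Hk1 and Hk2. It lay at 0.233, 0.0217, 0.102 and 0 FPKM in normal liver (at most 14 reads), at 28.1, 16.6 and 14.8 FPKM in Akt/Nras tumours and at 4.87, 9.37 and 10.7 FPKM in Foxo1AAA tumours. Its log2 change was 4.21 (SE 0.253, limma adjusted p = 1.85e-07) and 3.04 (SE 0.253, limma adjusted p = 2.93e-06), larger than that of any of the 8 genes. As no normal liver reached 1 FPKM, Hkdc1 passed the filter only through tumours and could be called only higher. All 6 tumours held more Hkdc1 than Hk1 or Hk2 in FPKM. Hkdc1 (chr10:62218916-62258270 in the deposited table) lies next to Hk1 on the same strand. Hk3, known from white blood cells, was at 0.462 to 1.44 FPKM over all libraries and was not called.

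The promoter of Hk2 is shown because it carries the core ACGTG of the sequence that hypoxia-inducible factor binds, in capitals (chr6:82774455-82774704, minus strand, RefSeq, GRCm38.p6, printed 5′ to 3′). The core occurs 2 times, beginning 226 and 52 bases before the start, both times as CACGT on the strand shown.
Hk2: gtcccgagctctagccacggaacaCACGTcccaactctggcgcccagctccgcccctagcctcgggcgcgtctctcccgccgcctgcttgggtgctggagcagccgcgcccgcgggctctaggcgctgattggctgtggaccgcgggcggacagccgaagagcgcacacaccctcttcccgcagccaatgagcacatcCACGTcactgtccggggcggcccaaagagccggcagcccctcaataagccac
Of the 14 starts of the 8 genes 5 held ACGTG on either strand, among them 2 starts of Aldoa that share 1 site, beside 16.6% of all 32851 windows. The Hif1a gene rose 2.02-fold in the Akt/Nras group (log2 change 0.92, limma adjusted p = 0.000142) and 1.68-fold in Foxo1AAA tumours (log2 change 0.67, limma adjusted p = 0.00156). Its protein is set mostly by degradation, which these data do not measure.

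Lactate dehydrogenase kept the same leading gene in all groups. Ldha (ENSMUSG00000063229, chr7:46490899-46505051 in the deposited table), which favours lactate production, was at 303, 208, 284 and 298 FPKM in normal liver, at 487, 358 and 373 FPKM in Akt/Nras tumours and at 296, 335 and 340 FPKM in Foxo1AAA tumours. The Akt/Nras tumours lay above all normal livers, by 1.49-fold in the mean (log2 change 0.57, SE 0.154, limma adjusted p = 0.00693). The Foxo1AAA tumours overlapped normal livers and did not pass (log2 change 0.26, SE 0.154, limma adjusted p = 0.167), but were called higher with equal totals (log2 change 0.98) and without the 50 most abundant genes in the total (log2 change 0.86).

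Ldhb, the heart form, was at 2.60 to 3.69 FPKM in normal livers, 0.932 to 2.15 FPKM with Akt/Nras and 1.03 to 1.61 FPKM in Foxo1AAA tumours, from 26 to 72 reads per library. It was 1.97-fold and 2.33-fold lower (limma adjusted p = 0.00439 and 0.00187), calls that were lost with equal totals (limma adjusted p = 0.848 and 0.12). Ldha made up 98.3 to 99.1% of the step in normal liver and 99.4 to 99.7% in tumours. The label of a switch did not hold for this step, where the same gene led in every library.

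The first start of Ldha is shown for its clustered sites (chr7:46845554-46845803, plus strand, RefSeq, GRCm38.p6, printed 5′ to 3′). The palindrome CACGTG, an E-box that holds ACGTG on both strands, begins 145 and 48 bases before the start, and 1 further ACGTG on the other strand begins 34 bases before it, all in capitals. CACGTG was found in 6.02% of all windows and in no other start of the 8 genes.
Ldha: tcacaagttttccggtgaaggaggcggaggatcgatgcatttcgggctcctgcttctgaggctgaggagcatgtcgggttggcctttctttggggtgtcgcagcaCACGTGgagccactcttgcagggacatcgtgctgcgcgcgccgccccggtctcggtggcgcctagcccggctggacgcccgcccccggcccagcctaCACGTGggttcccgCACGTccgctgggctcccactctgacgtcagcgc

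The isoenzyme ratios were tested within libraries, as log2 of FPKM + 0.1, by an exact two-sided permutation test of all 6 tumours against the 4 normal livers. In 3 of the 4 ratios given here the tumours and normal livers did not overlap, each with an exact permutation p = 0.00952, the smallest that 6 against 4 can give, and an adjusted p = 0.0457 over the 24 ratio tests run. Adjusted over the 16 tests of these 4 ratios alone, the exact permutation test gave 0.0508, so the call rests on how many tests are counted. The mean log2 difference was 3.89 for Pkm over Pklr. It was 3.32 for Pfkp over Pfkl and 1.5 for Ldha over Ldhb. With a pseudocount of 1 in place of 0.1 the 3 differences were 3.73, 1.71 and 1.18, and none passed (exact permutation test, adjusted p = 0.0571). Without any 1 library the same differences ran from 3.48 to 4.28, 3.19 to 3.49 and 1.31 to 1.63, but the adjusted p was then 0.0762 to 0.114, since fewer libraries allow fewer arrangements. Each tumour group alone against normal liver cannot go below p = 0.0571 in this exact test.

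**Figure D3:**
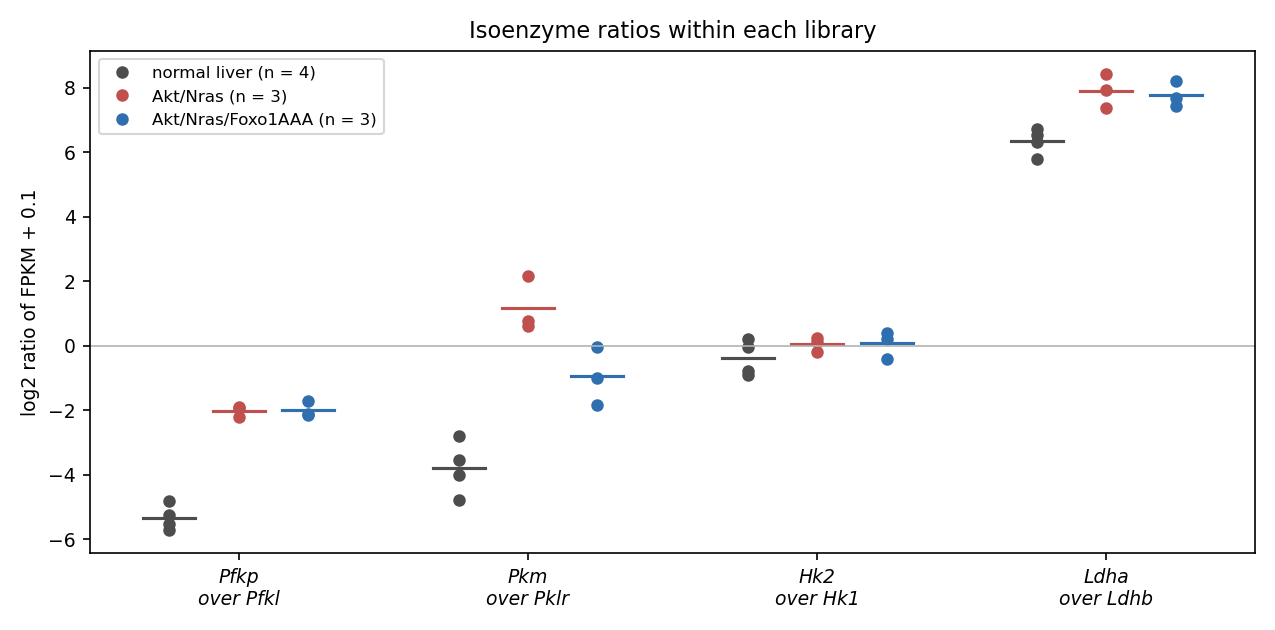
Log2 ratio of FPKM + 0.1 for 4 pairs of isoenzyme genes; points are libraries, lines are group means, and 0 marks equal levels. Pkm over Pklr is above 0 in the 3 Akt/Nras tumours and below 0 in the other 7 libraries, whereas Pfkp over Pfkl is at -2.20 to -1.71 in all 6 tumours.

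Between the tumour groups 2 of the 8 genes were called. Pklr was 1.8-fold higher in Foxo1AAA than in the Akt/Nras group (log2 change 0.83, limma adjusted p = 0.0114), the 1 of the 8 genes called higher, beside 7.93% of all tested genes. Aldoa was 1.73-fold lower (log2 change -0.78, limma adjusted p = 0.0405), the 1 called lower, beside 4.13% of all genes. The call of Pklr held with each of the 6 tumour libraries left out (limma adjusted p 0.0135 to 0.0493), but not when only the tumour groups were fitted (0.0569). The summed erythroid markers, beside which Pklr is read because it also encodes the red cell enzyme, were at 1010 to 2520 FPKM in Akt/Nras and 2050 to 3690 FPKM in Foxo1AAA tumours, and 1 of 5 tested was called higher in the latter. Normal livers, with the most Pklr, had 1000 to 1790 FPKM of them, and their part in the difference between the tumour groups was not tested. The call of Aldoa was lost when only the tumour groups were fitted (0.0915) and without Akt/Nras replicate 1 (0.12), Akt/Nras replicate 3 (0.0992), Foxo1AAA replicate 1 (0.145) or Foxo1AAA replicate 2 (0.0743).

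Of the other 6, all had lower means in Foxo1AAA tumours and none was called. The log2 change was -1.24 for Pkm (SE 0.426, limma adjusted p = 0.085), -0.46 for Hk1 (0.0503), -0.47 for Pfkl (0.0637), -0.45 for Hk2 (0.148), -0.40 for Pfkp (0.173) and -0.31 for Ldha (0.236). Pkm passed without Foxo1AAA replicate 3, the tumour with the highest Pkm of its group (log2 change -1.65, limma adjusted p = 0.0238). With equal totals 7 of the 8 were called lower, on a scale where the median of all genes was -0.21. The ratio of Pkm to Pklr was lower in Foxo1AAA tumours by 2.14 on the log2 scale, with no overlap and p = 0.1 in the exact permutation test, the smallest that 3 against 3 can give. The ratio of Pfkp to Pfkl differed by 0.03 (p = 0.9, exact permutation test) and that of Ldha to Ldhb by -0.14 (p = 0.8, exact permutation test), and both overlapped.

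Hkdc1 was 2.39-fold lower in Foxo1AAA than in Akt/Nras tumours (limma adjusted p = 0.0223), a call lost without Akt/Nras replicate 1 (0.0604) and without Foxo1AAA replicate 1 (0.0675). It was also lost with a pseudocount of 0.1 (limma adjusted p = 0.103), with no filter (0.0637) and when only the tumour groups were fitted (0.0983). Those 2 first replicates were the ends of the tumour range: Akt/Nras replicate 1 had the most Pkm, Aldoa and Hkdc1 and the least Pklr of all tumours, and Foxo1AAA replicate 1 the least Pkm, Aldoa and Hkdc1 and the most Pklr.

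The other genes of the pathway are given as whole lists. Of 8 tested genes of the remaining glycolytic steps 5 rose and 2 fell in Akt/Nras tumours, and 4 rose and 1 fell in Foxo1AAA tumours, with a median log2 change of 0.88 and 0.28. The share of all tested genes was 31.1% higher and 37.9% lower in Akt/Nras, and 26.8% higher and 36.5% lower in Foxo1AAA tumours. With equal totals 6 rose and 0 fell in each. Eno1, the ubiquitous enolase, rose from 86.4 to 99.3 FPKM in normal liver to 230 to 263 FPKM and to 152 to 213 FPKM (2.68-fold and 2.06-fold, limma adjusted p = 2.3e-06 and 3.66e-05). Gpi1, the isomerase after hexokinase, rose 2.67-fold and 2.07-fold (limma adjusted p = 8.36e-06 and 0.000114). Pgk1 was 1.92-fold higher in Akt/Nras tumours (limma adjusted p = 0.00608) and did not pass in Foxo1AAA tumours (log2 change -0.02), where it was called higher with equal totals (log2 change 0.70, limma adjusted p = 0.0171) and without the 50 most abundant genes in the total (log2 change 0.58, limma adjusted p = 0.0332). The muscle enolase Eno3 was 1.9-fold and 2.14-fold lower (limma adjusted p = 0.00698 and 0.00226), calls that were lost with equal totals, where the log2 change was 0.04 and -0.31. Gapdh ran from 1.97 to 2.70 FPKM in normal liver and from 3.22 to 71.6 FPKM in tumours, over 3.22 to 70.8 FPKM with Akt/Nras and 5.37 to 71.6 FPKM with Foxo1AAA. Its calls, counted above, were lost without Akt/Nras replicate 1 (limma adjusted p = 0.114) or 2 (0.0765) for the one group and without Foxo1AAA replicate 1 (0.0557) or 3 (0.0943) for the other, and in both with no filter, voom or array weights. Gapdh has many near-identical processed copies, as do Aldoa, Pkm, Ldha and Pgk1 to a lesser degree, and how the authors shared reads among such copies is not given in the sources used here.

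Of 6 tested sugar and lactate transporter genes 3 rose and 3 fell in Akt/Nras tumours, and 2 rose and 1 fell in Foxo1AAA tumours, beside 31.1% higher and 37.9% lower, and 26.8% and 36.5%, of all genes. With equal totals 4 rose and 1 fell, and 5 rose and 1 fell. Slc2a1, the glucose carrier GLUT1, was at 4.89 to 6.42 FPKM in normal liver, at 41.2, 19.8 and 31.7 FPKM in Akt/Nras tumours and at 6.73, 10.4 and 18.3 FPKM in Foxo1AAA tumours (5.73-fold and 2.19-fold, limma adjusted p = 5.27e-05 and 0.0208). The second of these calls was lost without Foxo1AAA replicate 3 (0.0881). Slc16a3, a lactate exporter of glycolytic cells, rose 12.4-fold in Akt/Nras tumours (limma adjusted p = 0.000288). It was at 0.684, 1.76 and 3.45 FPKM in Foxo1AAA tumours, which overlapped normal liver at 0.147 to 1.17 FPKM. Only 1 normal liver reached 1 FPKM, so Slc16a3 needed tumour libraries to pass the filter. Slc2a5, a fructose carrier, fell from 5.04 to 6.49 FPKM to 0.124 to 0.143 FPKM and to 0.494 to 1.05 FPKM (limma adjusted p = 5.23e-08 and 5.15e-07). Its Akt/Nras values came from 8 to 9 reads. Slc2a5 passed the filter through the 4 normal livers, with no tumour but Foxo1AAA replicate 1 at 1 FPKM, so it could be called only lower. Slc2a2, the liver carrier GLUT2, was 1.55-fold lower in Akt/Nras tumours (limma adjusted p = 0.000171), a direction that turned with equal totals, where its log2 change was 0.35.

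Of 6 genes for regulators of the early steps 3 rose and 2 fell in Akt/Nras tumours, and 2 rose and 2 fell in Foxo1AAA tumours. Of all genes, 31.1% rose and 37.9% fell in Akt/Nras, and 26.8% rose and 36.5% fell in Foxo1AAA tumours. The share that fell was near that of all genes in both groups, and so was the share that rose in Foxo1AAA tumours. With equal totals 4 rose and 1 fell, and 3 rose and 1 fell. The bifunctional enzymes set fructose 2,6-bisphosphate, which drives phosphofructokinase. Pfkfb1, the liver form, fell from 13.3 to 19.5 FPKM to 1.12 to 2.87 FPKM and to 2.51 to 5.57 FPKM (7.89-fold and 4.23-fold lower, limma adjusted p = 4.94e-06 and 6.6e-05). Pfkfb4 rose from 0.0457 to 0.438 FPKM to 4.68 to 10.4 FPKM and to 2.95 to 9.36 FPKM (log2 change 2.78 and 2.67, limma adjusted p = 2.79e-05 and 5.08e-05). It had 2 to 25 reads in normal liver and passed the filter only through tumours, so it could be called only higher.

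Of 12 genes for pyruvate entry to mitochondria 9 fell and 3 rose in Akt/Nras tumours, and 8 fell and 2 rose in Foxo1AAA tumours, with a median log2 change of -1.05 and -0.82, beside the shares of all genes given for the 8 isoenzyme genes. With equal totals 4 fell and 3 rose in Akt/Nras tumours, and 5 fell and 3 rose in Foxo1AAA tumours, with a median of -0.15 and -0.11. Pdp2, a phosphatase that activates pyruvate dehydrogenase, was 6.66-fold and 4.71-fold lower (limma adjusted p = 3.7e-07 and 1.9e-06), and the phosphatase Pdp1 6.15-fold and 7.07-fold higher (limma adjusted p = 0.000106 and 5.66e-05). Among the kinases that inactivate pyruvate dehydrogenase, Pdk2 was 4.55-fold and 2.93-fold lower (limma adjusted p = 3.05e-07 and 5.26e-06) and Pdk3 5.73-fold and 3.83-fold higher (limma adjusted p = 2.02e-06 and 4.32e-05). Pdk1 was 3.27-fold and 4.63-fold lower (limma adjusted p = 1.12e-06 and 4.47e-07), with a log2 change of -0.65 in Akt/Nras tumours with equal totals. Pdk4 was 2.45-fold higher in Akt/Nras tumours (limma adjusted p = 0.00729). It was not called in Foxo1AAA tumours (0.237), but was called higher there with equal totals (log2 change 0.71). Pdp1, from 4 to 24 reads in normal liver, and Pdk3, from 8 to 12 reads, passed the filter only through tumour libraries, so they could be called only higher. Pdp2, Pdp1, Pdk2 and Pdk3 were called in the same direction with equal totals. The dehydrogenase subunit genes Pdha1, Pdhb and Dld, named here after their values were seen, were called lower on the deposited scale but not with equal totals.

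**Figure D4:**
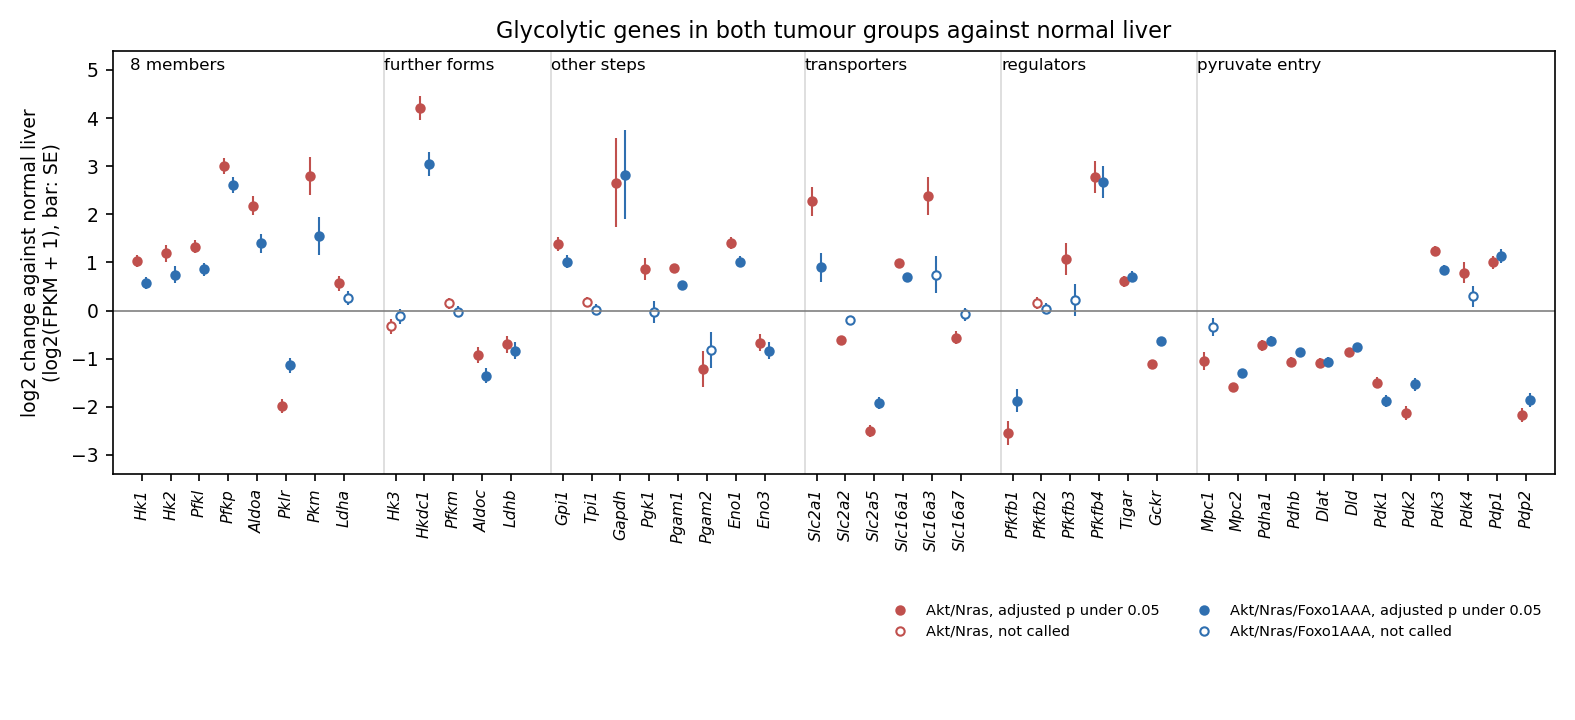
Log2 change against normal liver on the log2(FPKM + 1) scale, with SE, for the 8 isoenzyme genes, 5 further forms and the tested genes of the 4 pathway lists on other steps, transporters, regulators and pyruvate entry. Filled points have a limma adjusted p under 0.05. Pklr is the lowest of the 8 genes, at -1.98 and -1.14, and Hkdc1 the highest of those plotted, at 4.21 and 3.04.

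Markers of cell types differed between the groups on the deposited scale, and their counts with equal totals are not given. Equal totals would multiply normal livers by 0.708 to 0.761, Akt/Nras tumours by 1.38 to 1.51 and Foxo1AAA tumours by 1.18 to 1.27. On that scale the falls in tumours would be smaller and the rises larger. The 8 hepatocyte markers summed to 101000 to 106000 FPKM in normal livers, 32800 to 34900 with Akt/Nras and 40300 to 56900 with Foxo1AAA. Of these, 7 fell in each tumour group, while 1 rose in Foxo1AAA tumours. Beside this count and those of the other markers stand the shares of all tested genes. They were 31.1% higher and 37.9% lower in Akt/Nras, and 26.8% higher and 36.5% lower in Foxo1AAA tumours. Of 8 tested macrophage markers 6 rose in each tumour group and 1 fell in Akt/Nras tumours. All 10 listed summed to 91.2 to 132 FPKM in normal liver, 436 to 548 FPKM and 312 to 602 FPKM. Cd14 made up much of the tumour sums. It stood at 0.965 to 2.1 FPKM in normal liver, 305 to 318 FPKM with Akt/Nras and 138 to 403 FPKM with Foxo1AAA. Clec4f was lower in Akt/Nras tumours, at 10.7 to 35.2 FPKM against 37.3 to 65.7 FPKM in normal liver. The 8 stellate and fibroblast markers summed to 36.5 to 44.5 FPKM, 139 to 162 FPKM and 90.7 to 119 FPKM, and 5 rose and 2 fell in each. The 8 cholangiocyte and progenitor markers summed to 24.4 to 31.5 FPKM, 4150 to 5840 FPKM and 2680 to 5410 FPKM, and of 7 tested 7 and 6 rose. Nearly all of the tumour sums was 1 gene, Spp1, at 12.4 to 20.8 FPKM, 4008 to 5729 FPKM and 2625 to 5346 FPKM. Krt7 in Foxo1AAA tumours (0.214 to 0.289 FPKM) lay within its range in normal liver (0.111 to 0.424 FPKM). No normal liver reached 1 FPKM for Sox9, Cftr or Prom1, so these passed the filter only through tumours and could be called only higher. Krt19 also needed tumour libraries to pass. Hk1, Pkm and Aldoa are active in most of these cell types, and the part of such cells in the values was not tested. The 6 neutrophil markers summed to 0.964 to 4.15 FPKM, 13.1 to 27.2 FPKM and 7.5 to 27.5 FPKM, and 3 of the 3 tested rose in each. Ngp and Camp were at 0 in normal liver. S100a8 and Csf3r reached 1 FPKM in no normal liver, so both passed the filter only through tumours and could be called only higher. The 6 erythroid markers summed to 1000 to 1790 FPKM, 1010 to 2520 FPKM and 2050 to 3690 FPKM, and of 5 tested 1 fell in Akt/Nras and 3 rose in Foxo1AAA tumours. The 7 endothelial markers summed to 28.6 to 40.1 FPKM over all libraries, and of 6 tested 2 rose in each and 1 fell in Akt/Nras tumours. Lymphocyte markers summed to at most 3.24 FPKM and skeletal muscle markers to at most 0.717 FPKM in any library.

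Likeness was measured as the root mean square difference of log2(FPKM + 1), each centred on its mean over the 10 libraries, among 6029 genes with a mean of at least 5 FPKM. The genes nearest to Pkm were Ffar4, Bex3 and Egln3, at 0.316, 0.322 and 0.333. Those nearest to Pklr were Aqp11, Mettl7a1 and Rida, at 0.082, 0.098 and 0.117, with means of 12.5, 207 and 240 FPKM in normal liver and 2.46, 54.7 and 62.9 FPKM in Akt/Nras tumours. The distances were smaller for Pklr than for Pkm, which also varied more (SE of the change against normal liver 0.151 and 0.398). Such distances grow with that spread, so they do not rank how closely the 2 patterns were matched. Those nearest to Pfkp were Niban2, Wtip and Cpne8, at 0.115, 0.126 and 0.150, and those nearest to Ldha were Exoc6, Ddx39a and Ppp2cb, at 0.093, 0.104 and 0.111. Libraries share their group and scale, so these are descriptions of 10 points.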

How the data were processed

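RNA of 4 normal livers, 3 Akt/Nras tumours and 3 Akt/Nras/Foxo1AAA tumours was sequenced after polyA capture or ribosomal RNA removal, without saying which, per the labels' protocols. The authors deposited FPKM per gene, with gene lengths and coordinates, per the file headers. The submitters' processing notes name FastQC 0.11.7 and GRCm38 without their role; the aligner, the counter and the build of the coordinates were not given in the sources used here. FPKM times gene length gave whole reads within 0.02 of a read, 13585055 to 21262035 per library.

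Genes with at least 1 FPKM in at least 3 libraries (12439 of 56748) were fitted together in limma 3.58.1 (R 4.3.3) on log2(FPKM + 1), all 3 groups in 1 model, with Benjamini-Hochberg adjustment over all tested genes and a threshold of 0.05. The code was tested on simulated data. Isoenzyme ratios, log2 of FPKM + 0.1, were compared by exact two-sided permutation tests, adjusted over the 24 tests run, of which 16 are given. Some genes and the ratios that need them are not reported here. The number of libraries limits the precision of each value, and counting error does so for genes of few reads.

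The 8 genes, the pairs and the gene lists were chosen with earlier results of these data known. Named from each further list were up to 3 genes called in each direction with the largest change and the most abundant gene, and for Pkm, Pklr, Pfkp and Ldha the 3 tested genes nearest in pattern. Alternatives were other pseudocounts, filters and scalings, limma voom on the recovered reads, array weights, only the groups compared, the replicate number as a block, and each library left out. Promoters were RefSeq windows of 250 bases before a start on GRCm38.p6, which matched 8 of the 8 genes, and their coordinates were not joined with the deposited ones.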

Additional observations from a re-analysis of the deposited data

Results flagged for a closer look

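In the 4 normal livers, 1 library stood apart from the other 3 for a gene that bears on sugar entry. Slc2a5, the fructose carrier, was at 6.49 FPKM in normal liver replicate 2, a gap to the nearest library of 0.872 of the group's whole range. This exceeds the 95% limit of Dixon's test for 4 libraries. Of 51 values tested it was the 1 found, and chance gives about 1 in 20. Normal liver replicate 2 also had the highest Pklr and the lowest Hk1, Hk2, Pfkp, Aldoa, Pkm and Ldha of its group, so it lay farthest from the tumours within normal liver for these genes.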

How the results depend on the processing

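Against normal liver, the direction and call of the 8 genes were kept in 134 of 134 alternatives for Akt/Nras tumours and in 132 of 134 for Foxo1AAA tumours, where Ldha gained a call in 2. A filter of 5 FPKM lowered the count of all genes called from 8587 to 5372 and from 7874 to 5027, since fewer genes were tested. Equal totals turned the split of calls from 3871 higher and 4716 lower to 8609 and 1713 in Akt/Nras tumours, and from 3330 and 4544 to 7584 and 1681 in Foxo1AAA tumours. Without the 50 most abundant genes in the total the splits were 7489 and 2195, and 6845 and 1916.

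The comparison of the tumour groups was the least stable: 98 of 126 alternatives kept the call of the gene concerned, 19 gained one and 9 lost one. All genes called numbered 1500, against 923 with no filter, 3890 with equal totals (656 higher and 3234 lower, against 986 and 514), 3668 with array weights, 10 with only the groups compared and 550 to 1953 with each library left out. Without the 50 most abundant genes in the total, 803 were higher and 1239 lower. Of the 8 genes the 1 called higher became 0 with only the groups compared. The 1 called lower became 0 with no filter or only the groups compared, 2 with a filter of 5 FPKM or median-of-ratios scaling, 3 without the 50 most abundant genes or with voom, 5 with array weights, 7 with equal totals, and 0 to 3 with each library left out. The cause was not tested. Of 16 named genes called between the tumour groups, 3 (Foxo1, Gckr and Pklr) kept the call with every library left out.

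The 3 ratio differences called kept their sign throughout. In the order phosphofructokinase, pyruvate kinase and lactate dehydrogenase, they were 3.32, 3.89 and 1.5, with an adjusted p of 0.0508 over the 16 tests given alone (exact permutation test), an adjustment added after seeing the data. A pseudocount of 1 gave 1.71, 3.73 and 1.18 (exact permutation test, adjusted p = 0.0571). Akt/Nras tumours alone gave 3.31, 4.96 and 1.57, and Foxo1AAA tumours alone 3.34, 2.83 and 1.43 (exact permutation test, adjusted p = 0.0914). With each library left out they ran from 3.19 to 3.49, 3.48 to 4.28 and 1.31 to 1.63.

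Samples of the groups share replicate numbers, but same-numbered samples did not deviate together (correlations of -0.17 to 0.112), so the numbers do not show pairs. With the replicate block, 468 genes were called between the tumour groups, and 0 of the 8 genes were higher and 0 lower. The ratio differences with the block were 3.35, 3.82 and 1.5 (exact permutation test, adjusted p = 0.0889).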

Other observations

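A gene of fructose use was lower in tumours. Khk, the fructokinase of liver, stood at 419, 629, 549 and 500 FPKM in normal liver, at 57.9, 82.9 and 135 FPKM in Akt/Nras tumours and at 227, 209 and 163 FPKM in Foxo1AAA tumours. The 3 groups did not overlap. Khk was 5.7-fold and 2.62-fold lower than in normal liver (limma adjusted p = 5.96e-06 and 0.000701), also with equal totals (log2 change -1.60 and -0.66). Between the tumour groups it was 2.17-fold higher with Foxo1AAA (limma adjusted p = 0.0209), a call kept with 2 of the 6 libraries left out in turn (0.00521 to 0.0829).

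Among 5 genes for factors known to steer the splicing of Pkm, 3 rose and 1 fell in Akt/Nras tumours. In Foxo1AAA tumours 1 rose and 1 fell. The shares of all genes were 31.1% higher and 37.9% lower in Akt/Nras, and 26.8% and 36.5% in Foxo1AAA tumours. With equal totals 5 rose and 0 fell, and 3 rose and 0 fell. Hnrnpa1, which favours the PKM2 form, was at 18.5 to 31.1 FPKM in normal liver, at 36.9 to 47.4 FPKM in Akt/Nras tumours and at 20.1 to 24.3 FPKM in Foxo1AAA tumours. It was 1.77-fold higher in Akt/Nras tumours (limma adjusted p = 0.000905), and in Foxo1AAA tumours its log2 change was -0.04 (limma adjusted p = 0.853), though 0.65 with equal totals. Ptbp1 was 1.49-fold and 1.25-fold higher (limma adjusted p = 0.000847 and 0.0298). The second call, the 1 rise counted for Foxo1AAA tumours, was lost without normal liver replicate 2 (0.0751), 3 (0.0514) or 4 (0.0722) and without Foxo1AAA replicate 3 (0.127). Hnrnpa2b1 was 1.49-fold and 1.58-fold lower (limma adjusted p = 0.00224 and 0.00133), but turned to 0.38 and 0.07 on the log2 scale with equal totals.

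Hnf4a, a factor of mature hepatocytes, was 1.86-fold and 1.38-fold lower (limma adjusted p = 9.2e-06 and 0.00132), but its log2 change was 0.08 and 0.26 with equal totals.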
